A study of Mus musculus with 13 samples.

Results

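The regions described here are the 1679 Ikzf1 CUT&RUN peaks of mouse retina that touched no Ikzf4 peak, out of 1787 peaks in the Ikzf1 list. They were chosen by their measured positions. A peak was kept when it shared no base with any peak of 3 Ikzf4 lists, 1 from embryonic day 14 (E14) and 2 from the day of birth, postnatal day 0 (P0). CUT&RUN cuts and sequences the DNA around a protein that an antibody has marked, and a peak is a place where the cut fragments pile up. The Ikzf4 libraries came from whole retinas of CD1 mice at E14 (1 library) and P0 (2 libraries), with 1500000 cells for each stage, so they measured the protein made by the tissue itself. The single Ikzf1 library came from CD1 retinas taken at P0, electroporated with a plasmid in which the ubiquitous CAG promoter drives Ikzf1 and GFP from 1 transcript. The explants were cultured, the sample title gives P0 plus 9 hours, and 50000 GFP-positive cells were sorted. The Ikzf1 and Ikzf4 libraries thus differed in antibody, in culture, in sorting, in cell number and in the source of the protein, and these cannot be told apart. The Ikzf1 library had no replicate, so no spread between Ikzf1 libraries is known. Intervals on shares below are 95% Wilson binomial intervals and cover counting error alone.

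Ikzf1 encodes Ikaros and Ikzf4 encodes Eos, zinc finger transcription factors of 1 family. Members of the family bind DNA through a block of zinc fingers near the start of the protein and pair with each other through a further block near its end. Ikaros is known for its part in lymphocyte development and, in the retina, as a factor of early progenitors that favours early-born neurons. The series title frames the study as one of overlapping roles of Ikaros family proteins in retinal timing. The positions below are on the mm9 build, and neither sequence nor gene annotation of that build was used here, so no region is assigned to a gene.

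Most Ikzf1 peaks lay outside the Ikzf4 lists: 1679 of 1787 is 93.96% (92.8 to 94.97%). This share is what the choice of regions produces, and it is given as a description. Of the other 108 peaks, 33 overlapped the E14 list, 67 P0 replicate 1 and 73 P0 replicate 2. The rule drew a fine line at its edge. The 5 excluded peaks with the smallest overlap shared 1, 3, 24, 30 and 31 bases with an Ikzf4 peak. On chromosome 13, for instance, the peak at 55201520 to 55201715 was excluded for 1 shared base. Just outside the line, the 5 nearest retained regions lay 6, 8, 13, 13 and 21 bases from an Ikzf4 peak. The closest was on chromosome 1 at 159687117 to 159687294, 6 bases from a peak of P0 replicate 2 and 10 bases from a peak of P0 replicate 1, but 343975 bases from the nearest E14 peak. The next, on chromosome 9 at 65409804 to 65410067, was 8 bases from a P0 replicate 2 peak. Both were therefore near-misses of P0 peaks. Such cases were few, since 13 regions lay within 100 bases of an Ikzf4 peak and 32 within 500 bases.

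The retained regions were narrow. Their median width was 200 bp (order-statistic interval 197 to 202 bp), with 183 bp at the lower and 249 bp at the upper quartile. The narrowest peak of the whole Ikzf1 list was 174 bp wide, and 56 retained regions had exactly that width. Widths within 10% of this minimum were found for 662 of the 1679 regions, or 39.4% (37.1 to 41.8%). In each Ikzf4 list, the share of peaks within 10% of that list's own minimum was lower: 13.4% (12.1 to 14.8%) for E14, then 9.69% (8.64 to 10.9%) and 8.52% (7.70 to 9.41%) for the P0 replicates 1 and 2. The median Ikzf4 widths were 268, 291 and 306 bp in the same order. So the Ikzf1 regions sat near the smallest width in their list far more often than Ikzf4 peaks sat near theirs. Read depth was not used here, and its part in the widths was not tested.

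**Figure D1:**
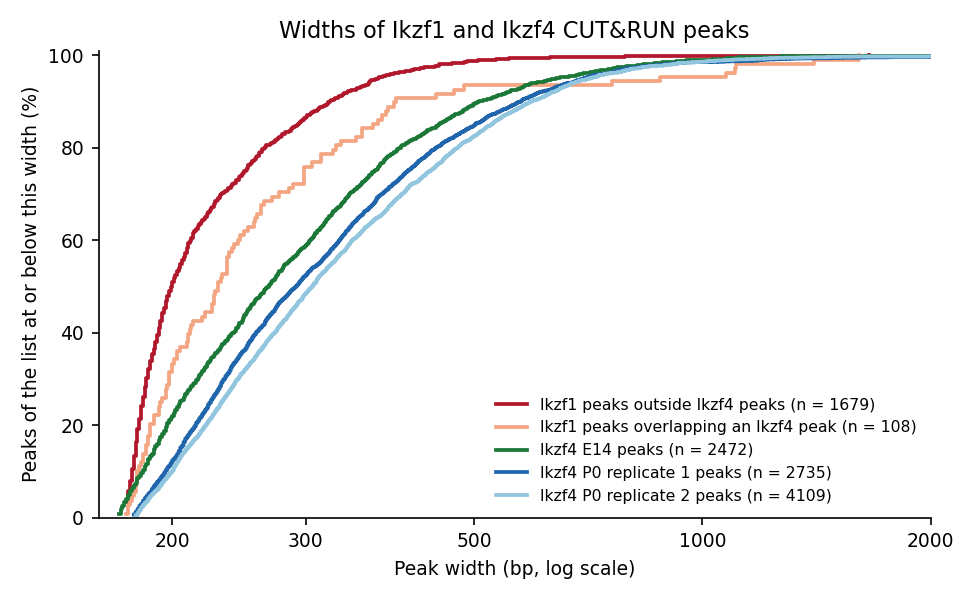
Cumulative share of peaks (y axis, %) at or below each width (x axis, bp, log scale) for the Ikzf1 peaks outside Ikzf4 peaks, the Ikzf1 peaks that overlap one, and the 3 Ikzf4 lists. The curve of the 1679 outside peaks rises first, with a median of 200 bp, against 230 bp for the overlapping Ikzf1 peaks and 268 to 306 bp for the Ikzf4 lists.

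The 108 excluded Ikzf1 peaks had a median width of 230 bp (211 to 244 bp), and 24 of them, or 22.2%, were within 10% of the minimum. A wider peak overlaps another list more readily, so this difference is not independent of how the regions were chosen. Peaks of at least 500 bp made up 20 of the 1679 retained regions (1.19%) and 7 of the 108 excluded peaks (6.48%).

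The 20 wide regions were scattered over 12 chromosomes, and 3 of them had an Ikzf4 peak within 10 kb. The widest of all, 1658 bp, was on chromosome 13 at 91313401 to 91315058, with the nearest Ikzf4 peak 195.7 kb away, in P0 replicate 2. On chromosome 5, a region of 1007 bp at 90049695 to 90050701 was 27.8 kb from peaks of every Ikzf4 library. The first was thus farther from Ikzf4 than the median region, and the second nearer than the lower quartile of all regions, 40.3 kb. Chromosome 11 held regions of 977 bp (11668873 to 11669849) and 859 bp (5068704 to 5069562), at 39.2 and 15.5 kb from an Ikzf4 peak. Next in width were 791 bp on chromosome 9 (122453823 to 122454613), 758 bp on the X (166410674 to 166411431) and 728 bp on chromosome 17 (30934811 to 30935538). The last of the 10 widest were 629 bp on the X (166413081 to 166413709), 598 bp on chromosome 17 (84860655 to 84861252) and 595 bp on chromosome 10 (20442940 to 20443534). Among these 10, the X regions and the 598 bp region of chromosome 17 were the ones with an Ikzf4 peak nearby, at 2.69, 1.76 and 1.03 kb.

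Distance to Ikzf4 peaks was measured from edge to edge. The median over 1677 regions was 129.8 kb, with quartiles of 40.3 and 308.1 kb, and the remaining 2 regions lay on a contig with no Ikzf4 peak. An Ikzf4 peak stood within 1 kb of 45 regions (2.68%, 2.01 to 3.57%), within 10 kb of 160 (9.53%, 8.22 to 11.03%) and within 100 kb of 728 (43.4%, 41.0 to 45.7%). No Ikzf4 peak lay within 1 Mb of 76 regions (4.53%), the 2 without a measured distance included. For 951 of the 1679 regions (56.6%), no listed Ikzf4 peak lay within 100 kb. The distances that positions scattered over the genome would give were not computed, so these values do not show unusual separation or nearness. When the lower-scored part of each Ikzf4 list was left out, the regions chosen anew numbered 1740. The share of them with a peak within 10 kb was 5.0%, with fewer Ikzf4 peaks to be near.

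By library, an Ikzf4 peak within 10 kb was found for 68 regions at E14 and, in the P0 replicates 1 and 2, for 83 and 122. These lists differ in length, with 2472, 2735 and 4109 peaks. With the 2472 most significant peaks taken from each, the counts were 68, 70 and 67 of 1679, or 4.05% (3.21 to 5.10%), 4.17% (3.31 to 5.23%) and 3.99% (3.15 to 5.04%). At equal length, then, the 3 libraries gave overlapping intervals, and no difference between E14 and P0 was detectable in how near the regions lay. For direct overlap, equal lists gave 33 Ikzf1 peaks at E14, against 56 and 45 in the P0 replicates. With the full lists again, 160 regions were near an Ikzf4 peak of any library. Of these, 47 were near peaks of both stages, 92 near P0 peaks alone and 21 near E14 peaks alone. Both P0 lists were pooled for this count, so more P0 than E14 peaks entered it.

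**Figure D2:**
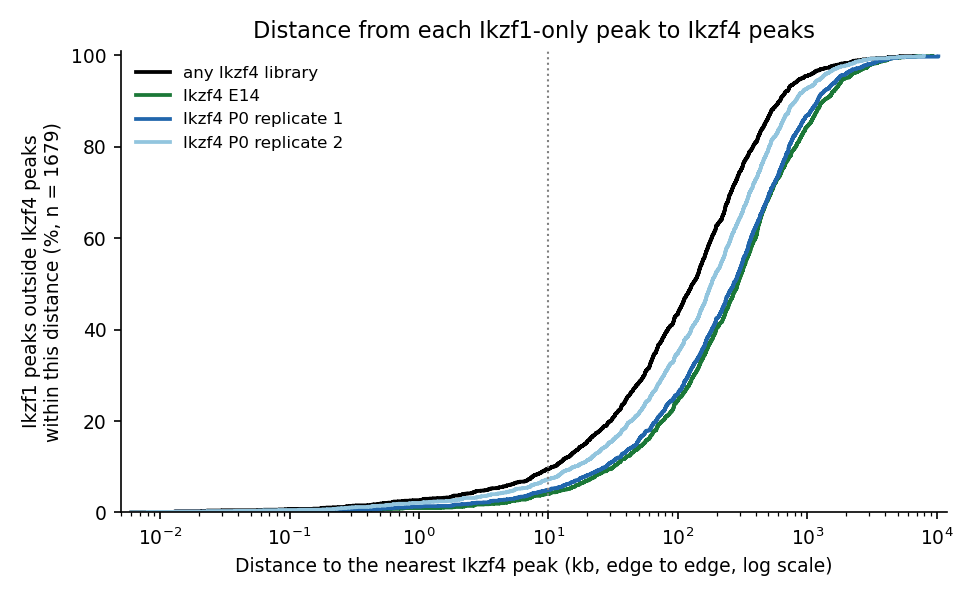
Cumulative share of the 1679 Ikzf1 peaks outside Ikzf4 peaks (y axis, %) with an Ikzf4 peak within each distance (x axis, kb, log scale), for any library and for each library; the dotted line marks 10 kb. The line for any library reaches 9.53% at 10 kb and 43.4% at 100 kb, and P0 replicate 2, the longest list, lies above E14 and P0 replicate 1.

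For scale, the same measure was taken between Ikzf4 lists. Of the 1068 E14 peaks outside both P0 lists, 165 (15.4%, 13.4 to 17.7%) had a P0 peak within 10 kb, and their median distance was 89.0 kb. Measured to the same P0 peaks, 139 of the 1679 Ikzf1 regions (8.28%, 7.05 to 9.69%) had one within 10 kb, at a median distance of 161.6 kb. The Ikzf1 regions were thus farther from P0 Ikzf4 peaks than unshared E14 Ikzf4 peaks were, with intervals that did not overlap. Only 1 library stood behind each of these sets, so the difference has no measure of replicate error.

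The fold enrichment that the authors' peak caller gave each Ikzf4 peak was read beside the regions. Ikzf4 peaks within 10 kb of a region, and overlapping no Ikzf1 peak, had a median fold of 4.03 at E14 (57 peaks), and of 4.90 (68 peaks) and 5.12 (114 peaks) in the P0 replicates 1 and 2. The medians of the whole lists were 4.09, 5.34 and 5.56. The Ikzf4 peaks near the regions were therefore of ordinary or slightly lower enrichment for their lists. Of the 100 most significant Ikzf4 peaks of each library, 2, 2 and 1 had a retained region within 10 kb, close to the 2.43, 3.03 and 2.94% of the whole lists. By these few counts, the leading Ikzf4 peaks did not stand out by their nearness to the retained regions. The rule had, however, removed every Ikzf1 peak that touched an Ikzf4 peak. Of the same 100 peaks of each library, 3, 6 and 4 overlapped an Ikzf1 peak. In the whole lists, 33 of 2472, 69 of 2735 and 74 of 4109 did. Such overlap was thus more frequent among the 100 most significant peaks of each library, but the counts are small and no test was run. By fold enrichment the order was the reverse. All Ikzf4 peaks overlapping an Ikzf1 peak had median folds of 3.46 at E14, and 4.07 and 4.94 in the P0 replicates 1 and 2. These medians were below those of the whole lists in each library. The overlapping Ikzf4 peaks were therefore not, as a set, the more enriched ones of their lists.

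Over larger distances the regions were denser where Ikzf4 peaks were denser. The numbered chromosomes and the X were divided into 2639 windows of 1 Mb, up to the last peak of any list, and the Ikzf4 lists were merged to 5798 regions. The 858 windows without Ikzf4 held 0.245 Ikzf1 regions each on average. Windows with a single Ikzf4 region held 0.484, and those with 2 to 3 held 0.794. Those with 4 to 6 held 1.14 and those with 7 to 36 held 1.20. The class of 7 to 36 included a window of the X with 30 Ikzf4 regions and 14 Ikzf1 regions. The share of windows with any Ikzf1 region was 61.1% for 4 to 6 and 60.3% for 7 to 36, with no further rise. Across the 2639 windows the Spearman correlation was 0.355, a description of windows that share the libraries, mappability and base composition. The regions did not touch Ikzf4 peaks, by the rule that chose them, and yet were more frequent in the parts of the genome where Ikzf4 peaks were. The part of mappability and base composition in this was not tested.

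Most windows held few regions. None was found in 1613 of the 2639 windows, 619 held 1, 273 held 2 and 93 held 3. A small number of windows held many more, against a mean of 0.630. Windows starting at 60 Mb on chromosome 11, 30 Mb on chromosome 17 and 166 Mb on the X had 14 regions each, 1 starting at 114 Mb on chromosome 6 had 12, and 1 starting at 6 Mb on chromosome 17 had 8. In the chromosome 6, 11 and 17 windows the merged Ikzf4 regions numbered 3, 5, 3 and 2, in the order 114, 60, 30 and 6 Mb, whereas the X window held 30. Such Ikzf4 numbers on chromosomes 6, 11 and 17 were common, with 676 windows of 2 to 3 Ikzf4 regions and 388 of 4 to 6. Windows of these classes held 0.794 and 1.14 Ikzf1 regions on average, against 8 to 14 in the crowded ones. The Ikzf4 lists were thus not depleted there, but were not crowded to the same degree.

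**Figure D3:**
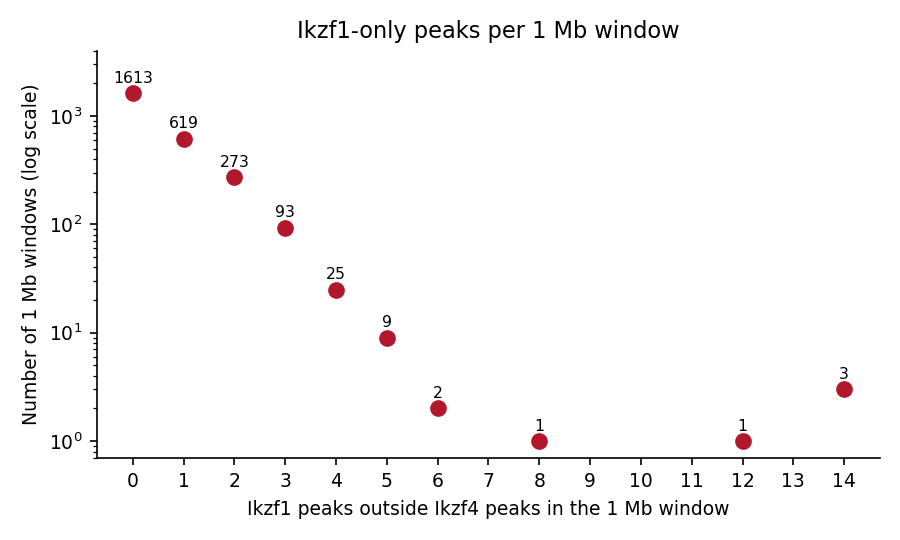
Number of 1 Mb windows (y axis, log scale, counts printed above the points) by the number of Ikzf1 peaks outside Ikzf4 peaks they hold (x axis), over 2639 windows of the numbered chromosomes and the X. Nearly all windows hold 0 to 6 such peaks, and the 5 windows with 8, 12 or 14 stand apart.

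These crowded places were traced as runs, defined after the windows were seen as 6 or more retained regions with steps of at most 100 kb. There were 6 runs with 55 regions, 3.28% of the 1679. On chromosome 11, 12 regions of 189 to 436 bp lay between 60326198 and 60482961, with a median spacing of 10.045 kb; that run held 2 Ikzf4 peaks, both of P0 replicate 2. On chromosome 6, 10 regions of 175 to 426 bp lay between 114442999 and 114569470, with a median spacing of 8.64 kb and no Ikzf4 peak of any library closer than 231.0 kb. In both runs Ikzf1 peaks outnumbered Ikzf4 peaks, and in the chromosome 6 run the Ikzf4 lists were empty. The chromosome 11 run spanned 156.8 kb. Its 2 Ikzf4 peaks were not few for that span, given 5798 merged Ikzf4 regions in 2639 windows of 1 Mb. Whether the CD1 genome differs from mm9 in copy number at the runs was not tested.

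Chromosome 17 carried a pair of runs of 7 regions each, from 30603399 to 30764064 and from 30934811 to 31046508. In them the spacing had medians of 25.4 and 18.8 kb, and the number of Ikzf4 peaks was 1 in the first (E14) and 3 in the second (1 in each library). A run of 6 regions on chromosome 7, from 38963655 to 39063016, stood beside 4 Ikzf4 peaks, all of them in P0 replicate 2. The regions in runs had a median width of 265 bp (222 to 323 bp) and the other 1624 a median of 198 bp (196 to 201 bp). Pooled, the regions in runs were thus wider than the rest, but the runs differed. Their median widths were 335 bp on the X, 343.5 bp on chromosome 7 and 255 bp on chromosome 11. On chromosome 6 the median was 225.5 bp, and in the chromosome 17 runs it was 209 and 206 bp. The Ikzf4 lists had runs of their own by the same rule. There were 9 at E14 with 93 peaks, and 13 and 43 in the P0 replicates with 125 and 365. These peaks were 3.76, 4.57 and 8.88% of their lists, against 3.28% of the Ikzf1 regions. The largest Ikzf4 runs held 20, 23 and 24 peaks, against 13. Runs were thus not particular to the Ikzf1 regions, and longer lists form runs more readily.

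Outside such places most regions had no close neighbour. Of the 1679, 1559 had no other retained region within 10 kb. The other 120 (7.15%, 6.01 to 8.48%) formed 48 groups, of which 40 were pairs, 4 had 3 regions, 3 had 5 and 1 had 13. Without the 6 runs the share with a neighbour within 10 kb was 4.99%. When each Ikzf4 list was trimmed to its 1679 most significant peaks, the share with a neighbour within 10 kb was 9.35% (8.05 to 10.8%) at E14, and 9.23% (7.94 to 10.7%) and 10.5% (9.16 to 12.1%) in the P0 replicates 1 and 2. The interval of the Ikzf1 regions overlapped those of E14 and P0 replicate 1 and lay below that of P0 replicate 2. The rule had removed the overlapping Ikzf1 peaks, 20.4% of which had another Ikzf1 peak within 10 kb. Over all 1787 Ikzf1 peaks the share was 8.11% (6.94 to 9.47%), with an interval that overlapped those of all 3 trimmed lists. The smallest groups named here, on chromosome 4 at 45491065 to 45507343, had 3 regions of 186 to 193 bp with no Ikzf4 peak of any library within 10 kb. A group of 5 on the unplaced contig Un_random, 5090436 to 5102200, lay beside 1 peak of P0 replicate 1.

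The group of 13 was near the distal end of the X chromosome, the end that carries the mouse pseudoautosomal region. It spanned 24.4 kb (166410133 to 166434507), with regions of 208 to 758 bp and a median spacing of 0.971 kb. Here the retained and the excluded Ikzf1 peaks lay side by side. Linked by steps of at most 50 kb, a stretch of 38.1 kb (166407830 to 166445931) held 25 Ikzf1 peaks, 13 retained and 12 excluded, and 3 more Ikzf1 peaks lay beyond it. From its proximal end, 1 excluded peak was followed by 9 retained, 2 excluded, 4 retained and 9 excluded peaks. The retained regions thus lay mostly on the proximal side, and the overlapping peaks mostly on the distal side, from 29.1 kb to 38.1 kb of the stretch. In the stretch 12 of 25 Ikzf1 peaks overlapped an Ikzf4 peak (48.0%, 30.0 to 66.5%), against 96 of 1762 elsewhere (5.45%, 4.48 to 6.61%). The retained regions of the stretch were 0.481 to 4.01 kb from an Ikzf4 peak. The Ikzf4 lists held 4 peaks there at E14, and 16 and 9 in the P0 replicates. Ikzf1 and Ikzf4 peaks thus crowded into the same short stretch, and the rule on shared bases divided them. Without the stretch, the share of Ikzf1 peaks outside Ikzf4 peaks was 94.55% and the median width of the retained regions was 199 bp.

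**Figure D4:**
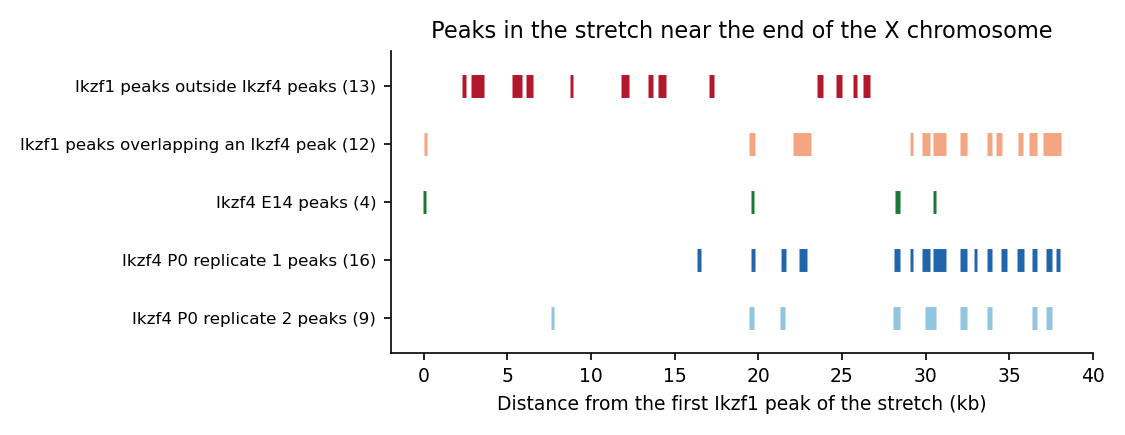
Peaks in a 38.1 kb stretch near the end of the X chromosome, by distance in kb from its first Ikzf1 peak (x axis), with 1 row per list and the number of peaks in brackets. Blocks are peaks to scale, 9 of the 13 Ikzf1 peaks outside Ikzf4 peaks lie in the left part and 9 of the 12 that overlap one in the right part, and E14 has 4 peaks against 16 and 9 in the P0 replicates.

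The X held 29 regions, 13 of them in the stretch and 16 elsewhere. It carried 1.73% (1.21 to 2.47%) of the retained regions, next to 1.56 to 2.05% of the Ikzf4 lists, and 14 of the 108 excluded Ikzf1 peaks (13.0%). Without the runs, the X held 0.985% (0.607 to 1.59%) of the retained regions, an interval that still reached the lowest Ikzf4 share. No region was placed on the assembled Y, and 16 were on unplaced contigs, 12 of these on Un_random.

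On the autosomes the regions were spread much like the Ikzf4 peaks, with exceptions. Chromosome 2 held the most, 137 regions or 8.16% (6.94 to 9.57%), against 6.19, 6.62 and 6.81% of the E14, P0 replicate 1 and P0 replicate 2 lists. The counterpart was chromosome 5, with 80 regions or 4.76% (3.85 to 5.89%), against 7.52, 6.87 and 6.72%. In both cases the interval cleared the shares of all 3 Ikzf4 lists, taken without their own counting error, upward on chromosome 2 and downward on chromosome 5. The same was true upward for chromosome 6 (97 regions, 5.78%, 4.76 to 6.997%, against 3.92 to 4.70%) and chromosome 17 (89 regions, 5.30%, 4.33 to 6.48%, against 3.87 to 4.02%). It was true downward for chromosome 13 (58 regions, 3.45%, 2.68 to 4.44%, against 4.45 to 5.85%). These 5 of 21 chromosomes were read off with no correction for the number compared, and no test was run. With Wilson intervals on the Ikzf4 shares too, only chromosome 5 stayed clear of all 3 lists. Its Ikzf4 intervals began at 6.55, 5.98 and 5.99%. On chromosome 2 the Ikzf4 intervals reached 7.21, 7.61 and 7.63% and overlapped that of the regions. Chromosomes 6 and 17 overlapped the lists as well, and chromosome 13 overlapped E14 (3.71 to 5.34%).

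The runs weigh on part of this. With the 55 regions in runs left out, chromosomes 2 (8.44%, 7.18 to 9.89%) and 5 (4.93%, 3.98 to 6.09%) still cleared the Ikzf4 shares, again taken without their own counting error. Chromosomes 6 (5.36%, 4.36 to 6.56%), 17 (4.62%, 3.70 to 5.75%) and 13 (3.57%, 2.77 to 4.59%) no longer did. Without the runs, the shares of chromosomes 6 and 17 were thus still higher than those of the Ikzf4 lists, but within counting error of them. The lower share of chromosome 13, which had no run, was marginal.

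**Figure D5:**
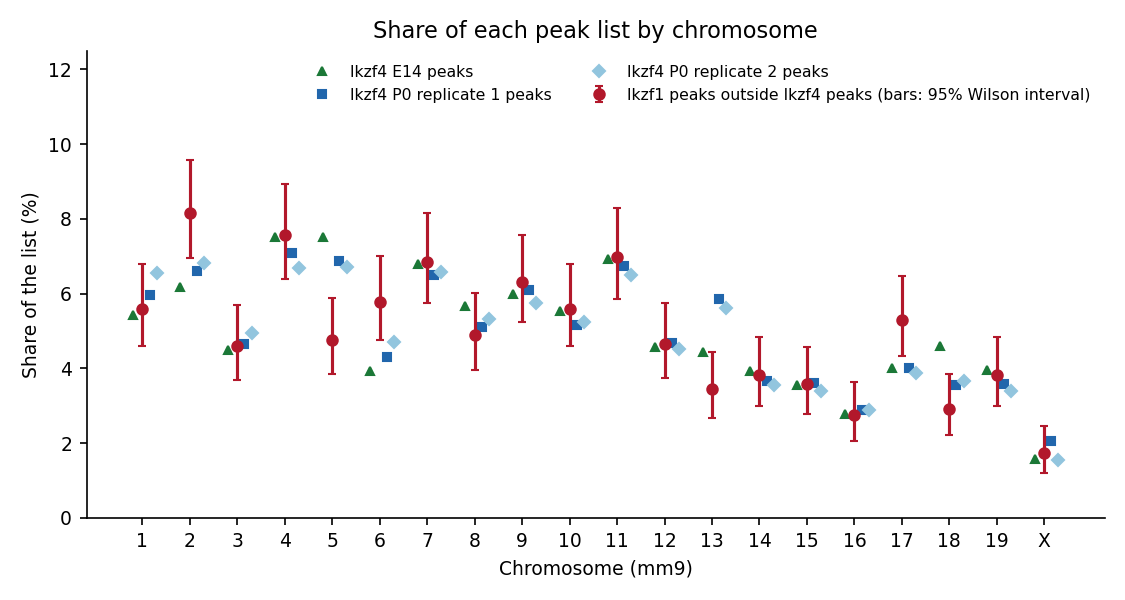
Share of each peak list (y axis, %) on every numbered chromosome and the X (x axis), for the 1679 Ikzf1 peaks outside Ikzf4 peaks (points with 95% Wilson intervals) and the 3 Ikzf4 lists (symbols without intervals). Chromosome 2 stands above and chromosome 5 below all 3 Ikzf4 symbols.

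The RNA libraries give the levels of the antibody targets' genes. They were made from dissociated P0 CD1 retinal cells, transfected to express GFP (4 control libraries) or Ikzf1 with GFP (4 Ikzf1 libraries), cultured for 9 h and sorted for GFP. They are labelled retinal progenitor cells, and in the authors' deposited table the 7 progenitor markers looked up, such as Pax6 and Sox2, had mean normalised counts of 511.6 to 10172. These counts are means over the control and Ikzf1 libraries together. In the authors' deposited table, photoreceptor markers ranged from 59.4 to 7014 and Müller glia markers from 338.4 to 5730. Amacrine and horizontal cell markers ranged from 11.2 to 2951 and ganglion cell markers from 6.12 to 399.6. Of markers for other cell types, the 3 endothelial ones ranged from 1.78 to 8281 with a median of 76.3, whereas astrocyte, microglia and blood markers did not exceed 36.3, 23.6 and 3.29 in the authors' deposited table. Their part in the values below was not tested. In bulk RNA, fewer cells of a type and less RNA per cell cannot be told apart.

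In the authors' deposited table (DESeq2, Benjamini-Hochberg adjusted p under 0.05), 3 of the 4 Ikaros family genes with an adjusted p were called, where 41.8% of all genes tested were called. The 3 include Ikzf1, which the plasmid supplied, so its call was fixed in advance. Ikzf1, the introduced gene, was higher by 11.11 on the log2 scale (standard error 0.08), with an adjusted p listed as 0 in the authors' deposited table. Reads from the plasmid count toward it. Ikzf4, the gene of the other antibody target, was lower in the Ikzf1 libraries by a log2 fold change of -0.54 (standard error 0.13, DESeq2 adjusted p 9.75e-05, the authors' deposited table), at a mean normalised count of 347.2. Ikzf2, which encodes Helios, was lower too, with -0.85 (standard error 0.11, DESeq2 adjusted p 8.44e-14, the authors' deposited table). Ikzf5, which encodes Pegasus, did not pass (0.09, standard error 0.08, DESeq2 adjusted p 0.425, the authors' deposited table). Ikzf3, which encodes Aiolos, had a mean normalised count of 1.17 and no adjusted p in the authors' deposited table. The Ikzf4 transcript was thus detected in the transfected and sorted retinal cells, and at a lower level where Ikzf1 was introduced. Which cell types it came from was not tested. Ikzf4 binding in those cells was not analysed here.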

How the data were processed

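Deposited peak lists of 1 Ikzf1 and 3 Ikzf4 libraries were used. Per the submitters' processing notes, the authors mapped reads with Bowtie2 and called peaks with MACS2; versions, options and any control library are not given in the sources used here, and IgG was not analysed here. For each Ikzf4 peak the authors deposited −log10 values of p and q, a score made from the latter, and a fold enrichment, which is a ratio to local background. Ikzf1 peaks all carry a deposited score of 0 and could therefore not be put in order of strength. Peaks named mm9 in the Ikzf1 list, and mm9 contig names in all lists, give the build. That build comes from C57BL/6J mice and the samples were CD1; strain differences were not tested.

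Overlap meant at least 1 shared base; distances run from edge to edge. The interval code was tested on simulated peaks and its result checked with bedtools 2.31.1. Intervals are Wilson (scipy 1.17.1) or, for medians, order statistics. Peaks are not replicates, so no test was run on them. Named regions are the 10 widest, the 5 nearest to an Ikzf4 peak, the 5 excluded with least overlap and the 5 largest groups. The regions, lists and rules were chosen with earlier results of these data known.

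The authors' deposited RNA table gives, per the file headers, mean normalised counts (a signal over all libraries), log2 fold changes and adjusted p-values from DESeq2. The transcript tables were not summed to genes here, so the planned count test was replaced by the authors' deposited table. Gene distances and motifs, planned only if an mm9 genome and annotation were used, were not analysed here. A planned progenitor marker is not reported here.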

Additional observations from a re-analysis of the deposited data

How the results depend on the processing

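The share of Ikzf1 peaks outside Ikzf4 peaks was between 91.44 and 98.15% under 15 alternatives, and 6 of them stayed within its counting interval. It was 95.4% when 50% of the Ikzf1 peak had to be covered, 92.2 and 91.4% when an Ikzf4 peak within 500 or 1000 bp counted as shared, 97.4% with Ikzf4 peaks at or above their list's median score, 98.15% with E14 alone, 91.9% among Ikzf1 peaks wider than the list's median and 95.3% with equal numbers of top-scored Ikzf4 peaks. Leaving out either P0 replicate gave 95.1 to 95.5%. The share with an Ikzf4 peak within 10 kb was 7.77 and 7.04% with the 500 and 1000 bp windows, 5.0% with the higher-scored Ikzf4 peaks, 4.85% with E14 alone and 7.46% with equal lists, and 7.33 to 8.88% without either P0 replicate; fewer Ikzf4 peaks enter most of these. The share with a neighbouring region within 10 kb was 5.55% after merging Ikzf1 peaks within 1 kb and 4.99% without the runs. The median width was 251 bp among Ikzf1 peaks wider than the list's median, by construction, and stayed within its interval under the other 14. The alternatives without the X stretch, without the runs and with equal lists were chosen after seeing the data. The alternatives for the RNA values were not run. No paired analysis was possible because the peak results come from no test and the RNA values are those of the authors' deposited table, which was not refitted. Without Ikzf1 reads, replicates or scores, weak and strong Ikzf1 peaks could not be separated.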

Other observations

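A set of 3 retained regions lay close together on mm9 chromosome 11, at 11648307 to 11648586 (280 bp), 11654003 to 11654184 (182 bp) and 11668873 to 11669849 (977 bp), over 21.5 kb. The last is the third widest of all retained regions, and none of the 3 was closer than 39.2 kb to an Ikzf4 peak. The authors' deposited table places Ikzf1 itself on the same chromosome, at 11685003 to 11772926 on GRCm38, a later build whose coordinates differ from mm9. The positions were not converted, so whether these regions fall in the gene whose cDNA the plasmid carried was not tested. They were singled out after their values were seen. A check on mm9 would tell whether they lie on exons of Ikzf1.

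Beside the 859 bp region at 5068704 on chromosome 11 lay a further region of 249 bp, at 5070002 to 5070250, and together they spanned 1.55 kb. By density, the run on the X held 533.3 regions per Mb, that on chromosome 6 held 79.1 and that on chromosome 11 held 76.5, with Ikzf4 peaks alongside on the X and none inside the chromosome 6 run.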
